A study of Mus musculus with 6 samples.

Results

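The red cell miRNAs miR-486, miR-3107, miR-451a and miR-144 were followed in brown and subcutaneous fat of mice fed a high-fat diet with EPA, the omega-3 fatty acid eicosapentaenoic acid. The members were the 6 rows of the deposited table named miR-486-5p, miR-486-3p, miR-3107-5p, miR-3107-3p, miR-451a and miR-144-3p, out of 1251 miRNA rows. All 6 were found. The C57BL/6J mice, an inbred strain, were 5 to 6 weeks old at the start and were fed for 11 weeks. The tissue was taken after a fast of 4 hours. Fat supplied 45% of the dietary energy, protein 20% and carbohydrate 35%, and EPA was added at 6.75%, so both groups carried the same diet and the same EPA. BF-EPA is interscapular brown fat, with libraries numbered 3, 4 and 5, and SUB-EPA is inguinal subcutaneous fat, a white depot, with libraries numbered 1, 3 and 8. Mice on the diet without EPA and visceral fat are not analysed here.

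MiR-451a and miR-144 are made from one primary transcript that is switched on by the transcription factor GATA1 as red cells mature, and both are textbook markers of the erythroid lineage. MiR-451a is unusual in that its hairpin is cut by an Argonaute protein instead of Dicer. In red cell precursors it restrains Ywhaz, which encodes a signalling adaptor, and miR-144 has been shown in human erythroid cells to repress the transcript of the antioxidant regulator NRF2. MiR-486 lies in Ank1, which encodes the ankyrin of the red cell membrane skeleton. It is abundant in red cells and also in skeletal and cardiac muscle. Fat as a whole tissue holds blood, so these miRNAs can reach a library from red cells as well as from other cells. In such bulk samples, fewer cells of a type and less RNA per cell cannot be told apart.

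The mature sequences of the miR-144 and miR-451a locus are shown because they are the reference for the GC contents used further on and because they show how miR-451a lies across the loop of its hairpin. They come from RefSeq (GRCm38.p6, chromosome 11, plus strand), which matched 2 of the 6 members. In the mature sequences the capitals mark the seed, bases 2 to 8.
miR-451a: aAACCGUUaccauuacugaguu
miR-144-3p: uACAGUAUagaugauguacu
In the hairpins the capitals mark the mature sequence.
Mir451a: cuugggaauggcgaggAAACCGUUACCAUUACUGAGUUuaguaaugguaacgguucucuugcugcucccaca
Mir144: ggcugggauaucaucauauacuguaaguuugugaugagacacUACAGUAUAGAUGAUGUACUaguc

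The mature miR-451a covered bases 17 to 38 of a 72-base hairpin, and the mature miR-144-3p bases 43 to 62 of a 66-base hairpin. MiR-451a is 22 bases long with 36.4% GC, and miR-144-3p is 20 bases long with 30% GC. On GRCm38, Mir144 occupies chromosome 11 from 78073005 to 78073070 and Mir451a from 78073170 to 78073241, both on the plus strand and 99 bases apart. The gene Eral1 lies beside them, from 78073376 to 78080383 on the minus strand. Mir451b occupies the same bases as Mir451a on the minus strand. Mir486 lies on chromosome 8 from 23142555 to 23142682 on the plus strand, and Mir3107 from 23142573 to 23142662 on the minus strand, so that all 90 bases of Mir3107 fall inside Mir486. GENCODE placed both inside 15 Ank1 transcripts and in an exon of 0 of them, so they are intronic. No miRNA in the RefSeq table shared bases 2 to 8 with miR-451a or miR-144-3p. The nearest match was miR-101a-3p, which shares bases 2 to 7 with miR-144-3p.

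Values are log2 abundances as the authors normalized them. The lowest value, 3.32 (10 on the linear scale), is a floor at which 910 rows stood in all 6 libraries, and 235 to 273 rows stood above it in each library. The distributions of the libraries were nearly equal, so their totals hold no depth, and a share of a library total is not a measured fraction of reads. The series' design text gives about 13.8 M mapped reads per sample, and the depth of single libraries is unknown. A difference is BF-EPA minus SUB-EPA on the log2 scale, tested with limma on 269 miRNAs that passed a filter on low values. Of these, 69.1% were called at an adjusted p of 0.05, 33.5% higher and 35.7% lower in BF-EPA, and in 74.0% the values of the tissues did not overlap. Defining miRNAs of the tissues differed between the groups: the 4 tested brown adipocyte miRNAs (miR-193b-3p, miR-365-3p, miR-455-3p and miR-378a-3p) were higher in BF-EPA, while miR-10b-5p, miR-196a-5p and miR-196b-5p of the Hox clusters, which mark body position, were lower.

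Of the 6 rows, 5 passed the filter, and 4 of these tested members were higher and 1 lower in BF-EPA. With 69.1% of all tested miRNAs called, a count of 5 calls in 5 is not in itself a result about red cell miRNAs. Their median difference was 2.95, beside -0.45 over all 269. The 4 higher rows come from the overlapping miR-486 and miR-3107 hairpins, and miR-451a was the lower row, at -1.49. The median is the value of the miR-486-5p row, which the miR-3107-5p row repeats. It therefore describes that locus and not a shift of red cell miRNAs as a set. MiR-144-3p did not pass the filter.

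**Figure D1:**
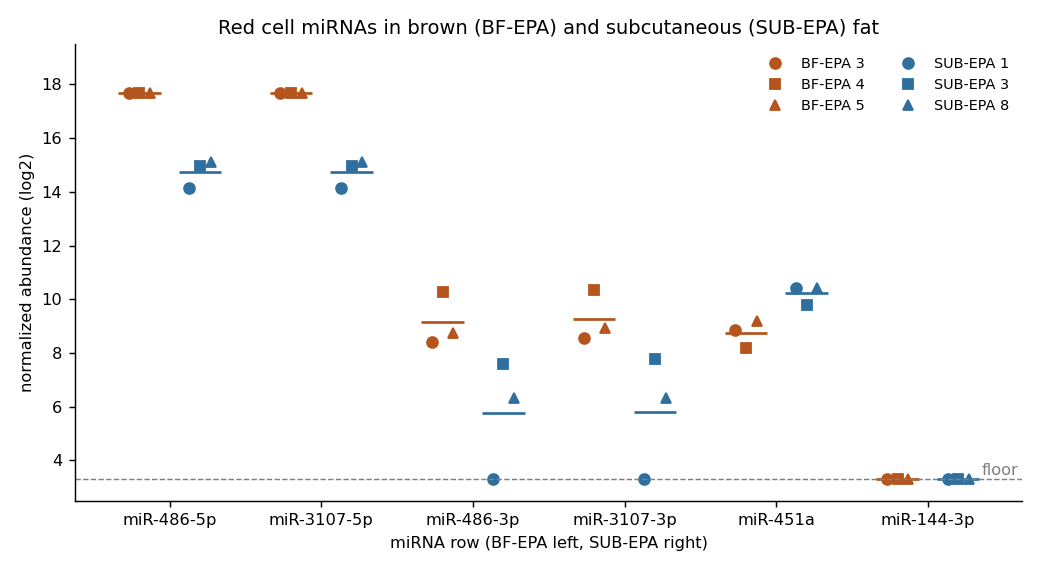
Normalized abundance (log2) of the 6 red cell miRNA rows; each point is a library, bars are means of 3 libraries, BF-EPA stands left of SUB-EPA and the dashed line is the floor of the table at 3.32. The 5p rows of miR-486 and miR-3107 stand at 17.68 in every BF-EPA library, miR-451a is lower in BF-EPA, and miR-144-3p lies at the floor in all 6 libraries.

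MiR-486-5p, the main arm of the hairpin, was among the most abundant miRNAs of brown fat. It stood at 17.68 in each of BF-EPA 3, 4 and 5, against 14.15 in SUB-EPA 1, 14.95 in SUB-EPA 3 and 15.09 in SUB-EPA 8. The groups did not overlap, and SUB-EPA 1 was the lowest library. It was 7.71-fold higher in BF-EPA (difference 2.95 ± 0.25 SE on the log2 scale, limma adjusted p = 0.000118, n = 3 per tissue). Leaving out any 1 library kept the difference between 2.65 and 3.13, and the adjusted p at or below 0.0019. In every BF-EPA library miR-486-5p shared second place in the table with its twin row, so BF-EPA contributed no spread to the fit, and the SE and p can be too small. Since the BF-EPA values were tied, leaving out a BF-EPA library could not move the difference. In SUB-EPA the best rank of miR-486-5p was 16 in library 8, 17 in library 3 and 24 in library 1. As a share of the floor-subtracted library total, the row took 8.71% in each BF-EPA library and 0.753% to 1.45% in the SUB-EPA libraries. Because the distributions of the libraries were nearly equal, these shares and the fold largely follow the rank of the row. MiR-378a-3p likewise stood at 18.67 in every BF-EPA library.

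The miR-3107-5p row repeated the miR-486-5p row in all 6 libraries within 1e-06. MiR-3107 is the antisense partner of miR-486 and is also named miR-486b in RefSeq. Because the rows are identical, the table does not tell the strands apart, and the 2 calls are 1 measurement. Any library share summed over both rows counts it again. The table holds 9 sets of identical rows above the floor, with 23 rows in all. Collapsing such rows left the miR-486-5p difference at 2.95, with an adjusted p of 0.000115.

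The 3p rows were far lower and were not identical. MiR-486-3p stood at 8.42 in BF-EPA 3, 10.29 in BF-EPA 4 and 8.75 in BF-EPA 5, against the floor in SUB-EPA 1, 7.60 in SUB-EPA 3 and 6.33 in SUB-EPA 8. Every BF-EPA library lay above every SUB-EPA library, by the least between BF-EPA 3 and SUB-EPA 3. MiR-3107-3p stood at 8.55, 10.36 and 8.94 in BF-EPA 3, 4 and 5, against the floor, 7.78 and 6.33 in SUB-EPA 1, 3 and 8. It equalled miR-486-3p in 2 libraries, SUB-EPA 1 and SUB-EPA 8, and exceeded it by 0.07 to 0.19 in the other 4. The difference was 3.40 ± 1.13 SE for miR-486-3p and 3.47 ± 1.16 SE for miR-3107-3p (both limma adjusted p = 0.0337). Neither call was stable. For miR-486-3p the adjusted p was 0.0736 without BF-EPA 3, 0.128 without BF-EPA 4, 0.0875 without BF-EPA 5 and 0.073 without SUB-EPA 8, and the difference was 2.19 without SUB-EPA 1 and 4.33 without SUB-EPA 3. For miR-3107-3p the adjusted p was 0.0739, 0.128, 0.0898 and 0.0759 without the same 4 libraries, and the difference was 2.23 without SUB-EPA 1 and 4.46 without SUB-EPA 3.

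**Figure D2:**
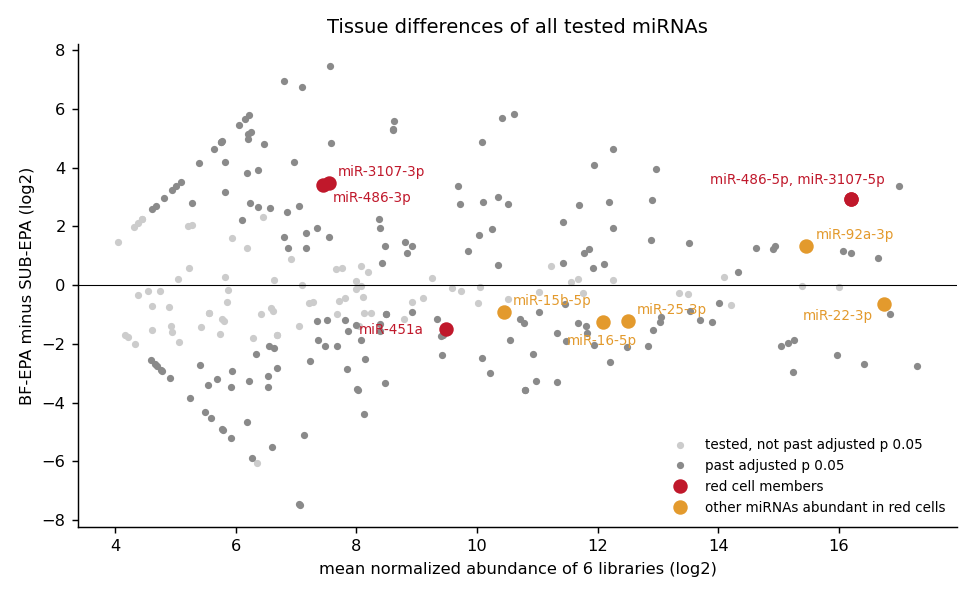
Difference between BF-EPA and SUB-EPA (log2) against mean normalized abundance (log2) for the 269 tested miRNAs; red points are the members and orange points other miRNAs abundant in red cells. The miR-486 and miR-3107 rows lie above 0 and miR-451a lies below it, at -1.49.

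The 3p rows moved with a muscle miRNA within each tissue. MiR-133a-3p, a miRNA of skeletal and cardiac muscle, stood at 10.32 in BF-EPA 3, 17.20 in BF-EPA 4 and 12.50 in BF-EPA 5, and at 10.74, 16.90 and 13.32 in SUB-EPA 1, 3 and 8. The order of the libraries from high to low was 4, 5, 3 in BF-EPA and 3, 8, 1 in SUB-EPA. MiR-486-3p and miR-3107-3p had the same order in both tissues, which in groups of 3 is a description and not a test. MiR-486-5p, tied in BF-EPA, had the order 8, 3, 1 in SUB-EPA, and miR-451a was lowest in the library with the most miR-133a-3p in both tissues. Of 7 listed muscle miRNAs, 3 passed the filter and 0 were called, where 69.1% of all 269 tested miRNAs were called. The SEs of these 3 were large, at 1.27 to 2.16, so the count does not show that muscle miRNAs were equal in the tissues. MiR-133a-3p had a difference of -0.31 ± 2.16 SE, with an adjusted p of 0.904. Its sign depended on single libraries, with -2.24 without BF-EPA 4 and 1.31 without SUB-EPA 3. MiR-1a-3p, miR-208a-3p, miR-208b-3p and miR-499-5p, all on the muscle list, stood at the floor in all 6 libraries. MiR-206-3p, also on that list, stood above the floor in BF-EPA 4 alone, at 7.71. The summed muscle list held 0.0526% to 6.29% of a BF-EPA library and 0.0706% to 5.12% of a SUB-EPA library, so the ranges of the tissues overlapped. Without BF-EPA 4 and SUB-EPA 3, where miR-133a-3p was highest, the miR-486-5p difference was 3.06 with an adjusted p of 0.00785. The 3p differences were then 3.76 for miR-486-3p (adjusted p = 0.0678) and 3.92 for miR-3107-3p (0.0622). The part of muscle RNA in the 3p values was not tested.

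**Figure D3:**
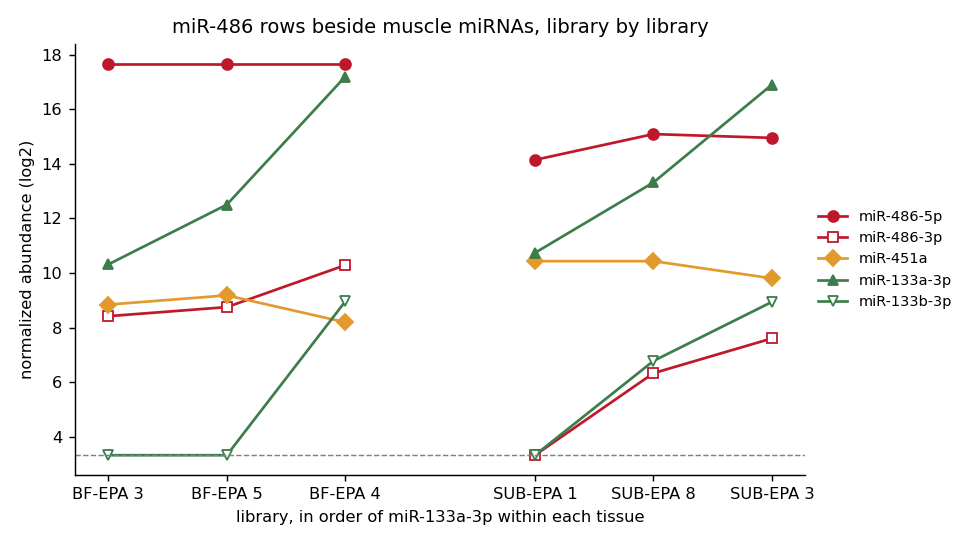
Normalized abundance (log2) of miR-486-5p, miR-486-3p, miR-451a and the muscle miRNAs miR-133a-3p and miR-133b-3p, with the libraries of each tissue in order of miR-133a-3p; lines join libraries of one tissue and the dashed line is the floor. MiR-486-3p climbs with miR-133a-3p in both tissues, while miR-486-5p is flat in BF-EPA at 17.68.

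MiR-451a was lower in brown fat. It stood at 8.84 in BF-EPA 3, 8.19 in BF-EPA 4 and 9.18 in BF-EPA 5, against 10.43 in SUB-EPA 1, 9.80 in SUB-EPA 3 and 10.43 in SUB-EPA 8. The groups did not overlap, and the libraries with the most miR-133a-3p were the lowest of each group. The difference was -1.49 ± 0.33 SE (limma adjusted p = 0.00662, n = 3 per tissue), which is 2.8-fold higher in SUB-EPA. Its best rank was 111 to 139 in BF-EPA and 83 to 95 in SUB-EPA. It took 0.0118% to 0.0237% of a BF-EPA library and 0.0368% to 0.0571% of a SUB-EPA library. MiR-451b, on the opposite strand, was listed at the floor in all 6 libraries. The call held without any 1 library, with differences of -1.71 to -1.21.

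The call of miR-451a was lost, and the sign of its difference turned, once the dependence of the libraries on GC content was removed. Abundance changed with the GC content of the mature sequence differently in the tissues. Over 229 tested miRNAs with a RefSeq sequence, it rose by 0.17 to 0.26 log2 units per 10% GC in the BF-EPA libraries, while in the SUB-EPA libraries the slope was -1.22 to -0.91. Below 40% GC, where miR-451a lies, 1 of 19 tested miRNAs was higher and 13 lower in BF-EPA, and from 60% GC upward 27 of 45 were higher and 4 lower. With each library's straight-line trend taken out, the miR-451a difference was 0.50 ± 0.27 SE (adjusted p = 0.145). Since each tissue has its own slope, a GC effect of library preparation and a tissue difference in GC-rich miRNAs cannot be told apart here. The correction could not be fitted to the miR-486 and miR-3107 rows.

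**Figure D4:**
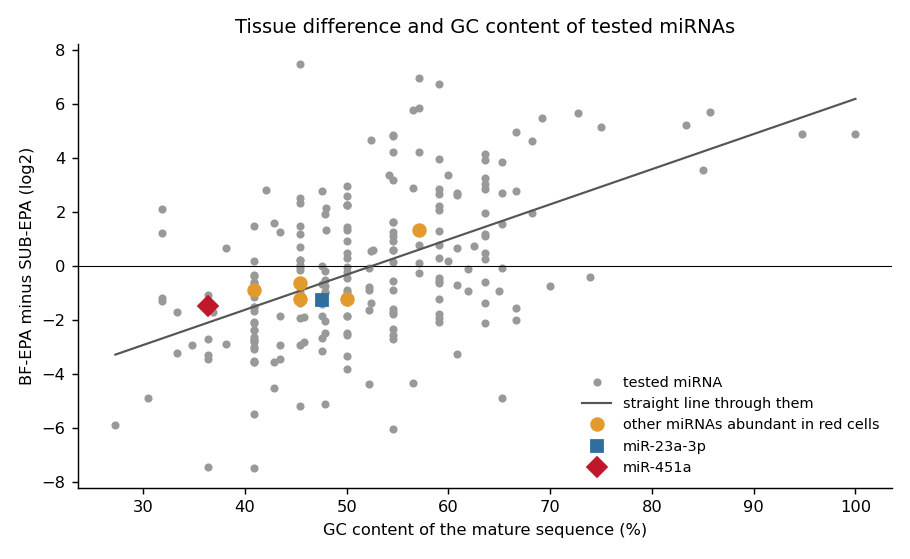
Difference between BF-EPA and SUB-EPA (log2) against the GC content of the mature sequence (%) for 229 tested miRNAs, with the straight line through them. MiR-451a, at 36.4% GC and -1.49, lies slightly above the line, among low-GC miRNAs that were mostly lower in BF-EPA.

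MiR-144-3p was listed at the floor in all 6 libraries, and so was miR-144-5p, the other arm of its hairpin, although miR-451a of the same primary transcript was above the floor in each. The floor can stand for a row that was not counted as well as for a miRNA of low abundance. Other miRNAs that are usually abundant in their cells were also at the floor throughout, such as miR-1a-3p of muscle beside miR-133a-3p, and miR-142-3p of blood cells beside miR-142-5p. Of 175 rows with a sequence below 40% GC, 16.6% stood above the floor in at least 1 library, beside 31.1% of 634 rows at 40% to 60% and 32.3% of 192 rows from 60%. MiR-101a-3p, described after its values were seen, stood at 6.80, the floor and 7.40 in BF-EPA 3, 4 and 5, against 7.40, 7.11 and 8.11 in SUB-EPA 1, 3 and 8. Its groups overlapped (difference -1.70 ± 1.07 SE, adjusted p = 0.194). The difference was -0.44 without BF-EPA 4, and 0.68 with the GC trend removed. No fold is given for miR-144-3p.

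The abundant rows of the different loci were then set against each other within a library. This removes a factor common to all rows of a library, but not a normalization that makes the distributions of the libraries equal. MiR-486-5p exceeded miR-451a by 8.83, 9.48 and 8.50 log2 units in BF-EPA 3, 4 and 5, against 3.71, 5.15 and 4.66 in SUB-EPA 1, 3 and 8. The excess averaged 8.94 ± 0.50 in BF-EPA and 4.51 ± 0.73 in SUB-EPA (SD, n = 3 each), a difference of 4.43 in which the groups did not overlap. An exact two-sided permutation test gave p = 0.1, the smallest that 3 libraries against 3 allow. Each of these rows already separated the tissues, in opposite directions. The separation of the excess and its p were therefore fixed by them and are not a separate result. In BF-EPA, where miR-486-5p was tied, the SD of the excess is that of miR-451a. The GC trend could not be removed from this excess, because miR-486-5p had no matched sequence.

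**Figure D5:**
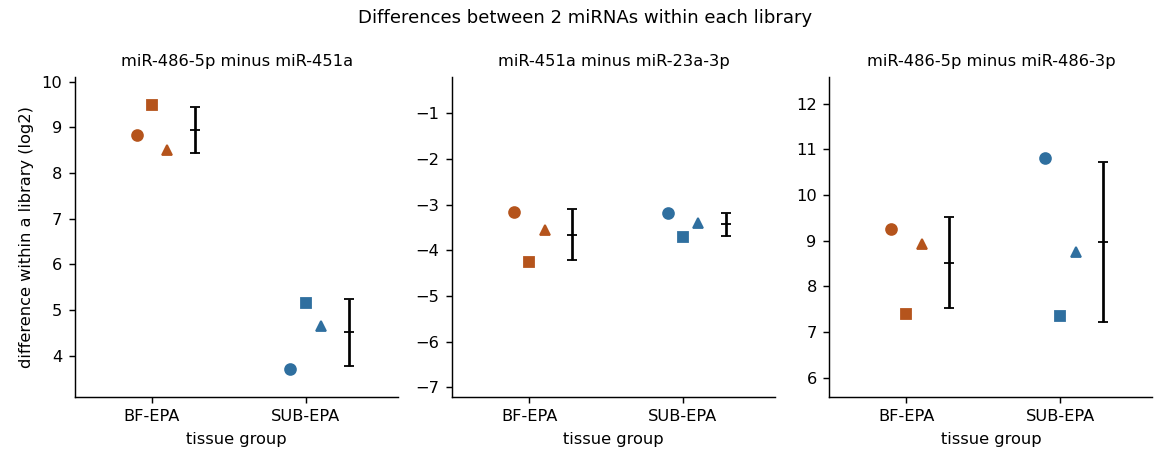
Differences between 2 miRNAs within each library (log2), with points for libraries and the mean ± SD of 3 libraries beside them; the 3 panels span equal ranges. The excess of miR-486-5p over miR-451a separates the tissues, while miR-451a minus miR-23a-3p and miR-486-5p minus miR-486-3p overlap; in SUB-EPA 1 the last is at least the value drawn, since miR-486-3p is at the floor.

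MiR-451a was also set against miR-23a-3p, a miRNA that is low in red cells and serves with miR-451a as an index of haemolysis in plasma. MiR-451a minus miR-23a-3p was -3.16, -4.26 and -3.55 in BF-EPA 3, 4 and 5, against -3.20, -3.70 and -3.40 in SUB-EPA 1, 3 and 8. The groups overlapped, with means of -3.66 ± 0.55 in BF-EPA and -3.43 ± 0.25 in SUB-EPA (SD, n = 3 each; exact two-sided permutation p = 0.7). MiR-23a-3p itself was lower in BF-EPA by a similar amount (-1.26 ± 0.22 SE, limma adjusted p = 0.00253). With 3 libraries against 3, no difference could have given a p below 0.1. The small difference of -0.22 turned to 0.08 without BF-EPA 4, and to 1.24 (exact permutation p = 0.1) with the GC trend removed.

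The excess of the 5p over the 3p arm of miR-486 did not separate the tissues. It was 9.26, 7.39 and 8.93 in BF-EPA 3, 4 and 5, against 7.35 in SUB-EPA 3 and 8.76 in SUB-EPA 8, and at least 10.8 in SUB-EPA 1, where the 3p arm was at the floor. With the floor taken as a value the difference was -0.45 (exact two-sided permutation p = 1.0). It was 0.47 without SUB-EPA 1 and 0.11 without BF-EPA 4. In each tissue the smallest excess was in the library with the most miR-133a-3p. In BF-EPA, where the 5p values were tied, this restates the order of the 3p arm.

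Of the 8 other miRNAs listed as abundant in red cells, many of which are made by other cells as well, 5 passed the filter, 1 was higher and 3 were lower in BF-EPA, with a median difference of -0.91 beside -0.45 over all tested. With 69.1% of all tested miRNAs called, 33.5% higher and 35.7% lower, 4 calls among 5 are near the background. MiR-92a-3p, a product of the miR-17-92 cluster that promotes proliferation, stood at 16.51, 15.70 and 16.18 in BF-EPA 3, 4 and 5, against 14.88, 14.75 and 14.75 in SUB-EPA 1, 3 and 8. It was 2.52-fold higher in BF-EPA (adjusted p = 0.00184). MiR-16-5p, which restrains the cell cycle, was lower in BF-EPA (-1.25 ± 0.18 SE, adjusted p = 0.00128), as was miR-25-3p (-1.23 ± 0.15 SE, adjusted p = 0.000692). MiR-15b-5p, with the seed of miR-16, was lower too (-0.91 ± 0.17 SE, adjusted p = 0.00334). MiR-22-3p was not past the threshold (-0.64 ± 0.26 SE, adjusted p = 0.0633), but was without SUB-EPA 1 (-0.82, adjusted p = 0.0441), and miR-144-5p, miR-185-5p and miR-363-3p did not pass the filter. With the GC trend removed, miR-25-3p kept its call (-1.02, adjusted p = 0.00131). The calls of miR-16-5p (-0.45, adjusted p = 0.0626) and miR-92a-3p (0.61, adjusted p = 0.0541) were lost, and miR-15b-5p turned to 0.48 (adjusted p = 0.0282).

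Markers of other blood and vessel cells also differed between the tissues, in both directions. Both tested endothelial arms of miR-126 were lower in BF-EPA, and the list summed to 0.134% to 0.158% of a BF-EPA library and 0.412% to 0.524% of a SUB-EPA library. MiR-126-3p had a difference of -2.04 ± 0.17 SE (adjusted p = 0.000106). The other arm, miR-126-5p, had a difference of -0.91 (adjusted p = 0.0114), which became -0.49 (adjusted p = 0.101) after median-of-ratios scaling. Of 7 listed leukocyte and platelet miRNAs, 5 passed the filter, 4 were lower and 1 higher in BF-EPA, where 69.1% of all tested miRNAs were called, and miR-142-3p and miR-155-5p were at the floor in all 6 libraries. MiR-223-3p, a myeloid and platelet miRNA, was at the floor in BF-EPA 3 and 4 and at 4.91 in BF-EPA 5, against 9.85, 8.79 and 9.45 in SUB-EPA 1, 3 and 8. MiR-150-5p of lymphocytes was the higher one (1.27 ± 0.19 SE, adjusted p = 0.00159). Among the 4 lower ones, the miR-146a-5p call (adjusted p = 0.0242) was lost without BF-EPA 3 (0.0618), BF-EPA 4 (0.0687), SUB-EPA 1 (0.0693) or SUB-EPA 8 (0.0861), and with the GC trend removed (-1.71 in place of -3.10, adjusted p = 0.135). That of miR-342-3p (adjusted p = 0.0182) was lost without BF-EPA 3 (0.0571) or BF-EPA 5 (0.0609), and with median-of-ratios scaling (-0.38 in place of -0.81, adjusted p = 0.186). MiR-150-5p held most of the list's share, so the list summed to 1.44% to 1.93% of a BF-EPA library and 0.690% to 0.909% of a SUB-EPA library. The part of blood content or vessel density in the miR-451a difference was not tested.

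The miRNAs whose profile over the 6 libraries was most like that of miR-486-5p, by root-mean-square difference of profiles centred on their means, were its twin miR-3107-5p (0), miR-328-3p (0.15), miR-744-5p (0.19), miR-671-3p (0.31) and miR-378a-3p (0.32). All 5 were higher in BF-EPA, which follows from choosing them by likeness to miR-486-5p and is not a separate result. For miR-744-5p and miR-671-3p, at 63.6% and 66.7% GC, the differences of 2.83 and 2.76 were 1.26 and 0.80 with the GC trend removed. Nearest to miR-451a were miR-326-3p (0.21), miR-30b-5p (0.22), miR-345-5p (0.22), miR-93-5p (0.24) and miR-532-5p (0.26), and 0 of these 5 is on the red cell list. As follows from the same way of choosing, their differences were between -1.71 and -1.16. With the GC trend removed they were -3.52 for miR-326-3p, -2.21 for miR-345-5p and -1.72 for miR-93-5p, against 0.50 for miR-451a. The likeness to these did not hold there. MiR-30b-5p and miR-532-5p had no matched sequence and so no value with the trend removed.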

How the data were processed

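Total RNA of snap-frozen fat, taken after a fast of 4 hours, was made into Illumina small RNA libraries, per the labels' protocols. Per the series' design text, the authors mapped about 13.8 M reads (M, 1e6) per sample to mouse build mm10, scaled counts to total usable reads and added 40. The authors deposited log2 values; these have a floor of 10 on the linear scale and near-equal distributions, and the 40 does not show as an offset. Neither aligner nor miRNA annotation is given in the sources used here.

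A miRNA was tested if its floor-subtracted linear mean was at least 10 parts in 1e6 of the mean library total (24.0 units). Limma 3.58.1 in R 4.3.3, with its trend option and p-values adjusted by Benjamini-Hochberg over the 269, was tested on simulated data. Exact permutation tests and plots used Python 3.11.15 (scipy 1.17.1, matplotlib 3.10.9, pandas 2.3.3, numpy 2.4.6). Positions came from GENCODE M21 (GRCm38, which is mm10). Of the tested miRNAs, 85.1% had a RefSeq sequence.

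The labels do not say which libraries share a mouse, nor whether they are of separate mice, so the p-values measure only spread between the samples at hand, which may be technical. They name no batch. The members and lists were chosen with earlier results of these data known. The text names the members, miR-23a-3p, up to 3 values per list with further list members, and the 5 nearest profiles of miR-486-5p and of miR-451a. Alternatives were another pseudocount, filter, scaling and variance model, GC correction, collapsed identical rows and libraries left out.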

Additional observations from a re-analysis of the deposited data

How the results depend on the processing

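No paired analysis was possible because the labels do not say which libraries share a mouse. The groups share 1 replicate number only, and whether it marks the same mouse is unknown. The miR-486-5p difference and the excess of miR-486-5p over miR-451a kept their direction under every alternative that could be fitted (2.65 to 3.37 and 4.03 to 4.80). The miR-486-5p call held in all 15 of its alternatives. Many of these could not move its difference. Another filter or variance model and collapsed rows leave its values as they are, and the BF-EPA values are tied, so leaving 1 of them out changes nothing. Those did not include the GC correction, since the miR-486 rows had no matched sequence. Whether the miR-486-5p difference and this excess depend on GC content was therefore not tested. The miR-451a call held in 15 of 16 and was lost with the GC trend removed, where the sign of the difference turned (0.50, adjusted p = 0.145). Leaving out 1 library, miR-486-3p ranged from 2.19 to 4.33 and miR-3107-3p from 2.23 to 4.46. The miR-486-3p call was also lost without both libraries numbered 3 (4.69, adjusted p = 0.0540), and both 3p calls were lost without BF-EPA 4 and SUB-EPA 3, the libraries with the most miR-133a-3p (3.76 and 3.92), an alternative chosen after seeing the data. MiR-451a minus miR-23a-3p ranged from -0.472 to 0.0753 leaving out 1 library and was 1.24 with the GC trend removed. MiR-486-5p minus miR-486-3p ranged from -1.27 to 0.47 leaving out 1 library and was 0.49 with 40 added. With the filter 10 times as strict, 157 miRNAs were tested and 58 were higher in BF-EPA, against 90 of 269. Median-of-ratios scaling moved the median difference of all tested miRNAs from -0.45 to -0.09; miR-451a was then -1.07 (adjusted p = 0.0321) and miR-486-5p 3.37. MiR-144-3p, at the floor throughout, gave no value under any alternative. The cause of these changes was not tested, beyond the fewer miRNAs of the stricter filter. The depth of single libraries is unknown, and the values do not tell a row at the floor from one of low abundance.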
